A study of Mus musculus with 19 samples.

Results

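NRF2 is a transcription factor that cells hold at a low level through KEAP1, an adaptor that hands it to a ubiquitin ligase for destruction. Oxidants and electrophiles modify KEAP1, NRF2 then accumulates, pairs with a small MAF protein and binds antioxidant response elements near genes of glutathione synthesis, thioredoxin and peroxiredoxin repair, quinone and carbonyl reduction, and haem breakdown. In liver this programme is known for protecting hepatocytes against reactive drug metabolites and bile acids. The genes described here are 10 widely used NRF2 targets, chosen by name and found by their Ensembl identifiers among the 35274 genes of the deposited tables: Nqo1, Gclc, Gclm, Hmox1, Txnrd1, Srxn1, Slc7a11, Akr1b8, Cbr3 and Gpx2. All 10 were present in the tables, and 9 passed the filter on low counts and were tested. Gpx2 did not pass it. The 10 genes and the further lists below were chosen with earlier results of these data known. Their counts set against all tested genes are therefore not those of a choice independent of the data.

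RNA was sequenced from mouse hepatocyte populations with 5 samples each. All animals, the controls included, carried OPN-CreERT2 and Rosa26R-mT/mG. The first is a tamoxifen-inducible Cre recombinase under the osteopontin (OPN) promoter, which in healthy liver is mainly active in bile duct cells. The second is a reporter that makes tdTomato in every cell until Cre switches the cell and its descendants to green fluorescence. In the GREEN group are hepatocytes from livers with chronic injury, named DR-derived in the labels, which leave the abbreviation unexplained. The RED group holds native hepatocytes with tdTomato from livers with chronic injury. The CTL group holds native hepatocytes from livers without injury. The sample codes of all RED and GREEN libraries carry 16w before their number and those of CTL do not, which the labels leave unexplained. The labels otherwise state no age, sex, injury agent, tamoxifen schedule or sorting gate, and none says whether samples came from separate animals, so the p-values measure the spread between these samples.

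The libraries came from 2 experiments with different kits, poly(A) selection in experiment 1 and ribosomal RNA removal in experiment 2. Totals were 22442607 to 34216824 estimated counts per library in experiment 1 and 38061859 to 44177627 in experiment 2. Each group entered the tests with 2 libraries of experiment 1 and 3 of experiment 2. Hepatocyte genes were high in all samples, with a summed level of 10 markers (Alb, Apoa1, Ttr and others) of 34960 to 77433 CPM (read counts relative to TMM-scaled library size) in GREEN, 72693 to 117460 in RED and 106580 to 172280 in CTL. Markers of other cell types were also detected. The sum of 10 biliary markers was 531 to 8291 CPM in GREEN, 88.5 to 436 in RED and 28.7 to 315 in CTL, where Cftr was at 0 in every sample. GREEN 3, GREEN 4 and GREEN 5 held the highest biliary sums (3035, 8291 and 4246 CPM) and the lowest hepatocyte sums. Most of the biliary sum was Spp1, the osteopontin gene, at 2350, 7414 and 3620 CPM in these samples. Spp1 was at 380 CPM in RED 5 and 283 CPM in CTL 5, the highest sums of those groups. Krt19, another of the markers, was at 73.9, 98.5 and 79.6 CPM in GREEN 3 to 5, against 8.33 and 14.0 CPM in GREEN 1 and GREEN 2. The sums of 10 endothelial markers were 324 to 760, 407 to 2014 and 44.5 to 145 CPM in GREEN, RED and CTL, those of 10 stellate markers 836 to 2634, 304 to 1684 and 34.1 to 76.1, and those of 10 macrophage markers 126.5 to 480, 108 to 1449 and 34.2 to 95.1. In bulk RNA, fewer cells of a type and less RNA per cell cannot be told apart. Nor can marker RNA made by the sorted hepatocytes themselves be told from that of other cells.

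The promoters show where the element that NRF2 recognises lies by sequence alone. RefSeq promoters of the build GRCm38.p6, from 250 bases before to 50 after the start, were at hand for 8 of the 10 genes (Gclc and Hmox1 were the others). They were searched on both strands for the core TGACNNNGC, for its G variant TGAGNNNGC and for the AP-1 motif TGANTCA, which can overlap the G variant. Of 32851 mouse promoters of this length, 12.39% held the first, 17.65% the second, 27.79% either and 7.81% the AP-1 motif, and in 0.82% a core of either kind overlapped an AP-1 motif. Among the members, 4 genes had a core match and Nqo1, Akr1b8, Cbr3 and Gpx2 had none in this window, which says nothing of elements further away. The stretches before the start of these 4 genes follow, on the strand of the gene, with the core matches in capitals. They are shown because these were the members with a match before the start. In the stretches printed, Gclm and Txnrd1 held the core TGACNNNGC, and Srxn1 and Slc7a11 held the G variant.
Srxn1: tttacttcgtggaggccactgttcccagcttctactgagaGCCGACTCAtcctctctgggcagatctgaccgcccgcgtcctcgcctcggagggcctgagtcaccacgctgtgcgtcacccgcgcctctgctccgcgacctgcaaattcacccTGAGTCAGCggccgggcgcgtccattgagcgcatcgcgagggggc
Slc7a11: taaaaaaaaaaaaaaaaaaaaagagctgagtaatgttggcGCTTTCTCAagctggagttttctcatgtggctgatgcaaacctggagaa
Gclm: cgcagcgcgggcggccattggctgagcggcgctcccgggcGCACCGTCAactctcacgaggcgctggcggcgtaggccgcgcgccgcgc
Txnrd1: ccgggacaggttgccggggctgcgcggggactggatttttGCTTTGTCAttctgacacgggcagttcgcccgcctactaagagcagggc
These are chr2:152105326-152105523 (plus strand), chr3:50443662-50443750 (minus strand), chr3:122245383-122245471 (plus strand) and chr10:82859074-82859162 (plus strand). In Srxn1 the matches began 158 and 45 bases before the start, and the nearer one, TGAGTCAGC, contains the AP-1 motif TGAGTCA. A match of Srxn1 to the core TGACNNNGC on the other strand, GCTAGGTCA, lay after its start, outside the printed stretch. The matches of Slc7a11, Gclm and Txnrd1 began 97, 134 and 92 bases before the start. The one of Txnrd1 was in 1 of its 3 promoters in the table. A match is a string of letters and not evidence of binding.

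Levels differed widely among the members when set per length. Gclc, which encodes the catalytic subunit of glutamate-cysteine ligase, the rate-limiting enzyme of glutathione synthesis, was the highest, at 51.8 ± 19.7 CPM per kilobase of exon in GREEN, 82.9 ± 19.4 in RED and 74.5 ± 13.6 in CTL (SD, n = 5 each). Gclm, the modifier subunit of the same enzyme, stood at 17.4 ± 3.90, 25.9 ± 2.42 and 33.3 ± 3.06 CPM per kilobase in GREEN, RED and CTL. Txnrd1, the cytosolic thioredoxin reductase, stood at 14.1 ± 3.91, 20.1 ± 3.33 and 20.7 ± 1.27. These 3 genes led the list in CTL, and their CTL ranges did not overlap there. Srxn1 followed in CTL with 12.0 ± 1.68, then Hmox1 with 7.08 ± 3.69 and Nqo1 with 4.09 ± 4.12, and the spread of Nqo1 overlapped that of Hmox1. In RED, Hmox1 (26.8 ± 16.4) and Srxn1 (22.9 ± 16.0) had wide spreads, and neither differed beyond it from Gclm or Txnrd1. Akr1b8 was at 5.17 ± 3.28, 4.92 ± 5.16 and 0.213 ± 0.101 CPM per kilobase in GREEN, RED and CTL, the step that put it beside Nqo1 in injured liver and far under it in healthy liver. Cbr3, Slc7a11 and Gpx2 were the lowest, each under 0.6 CPM per kilobase in RED.

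**Figure D1:**
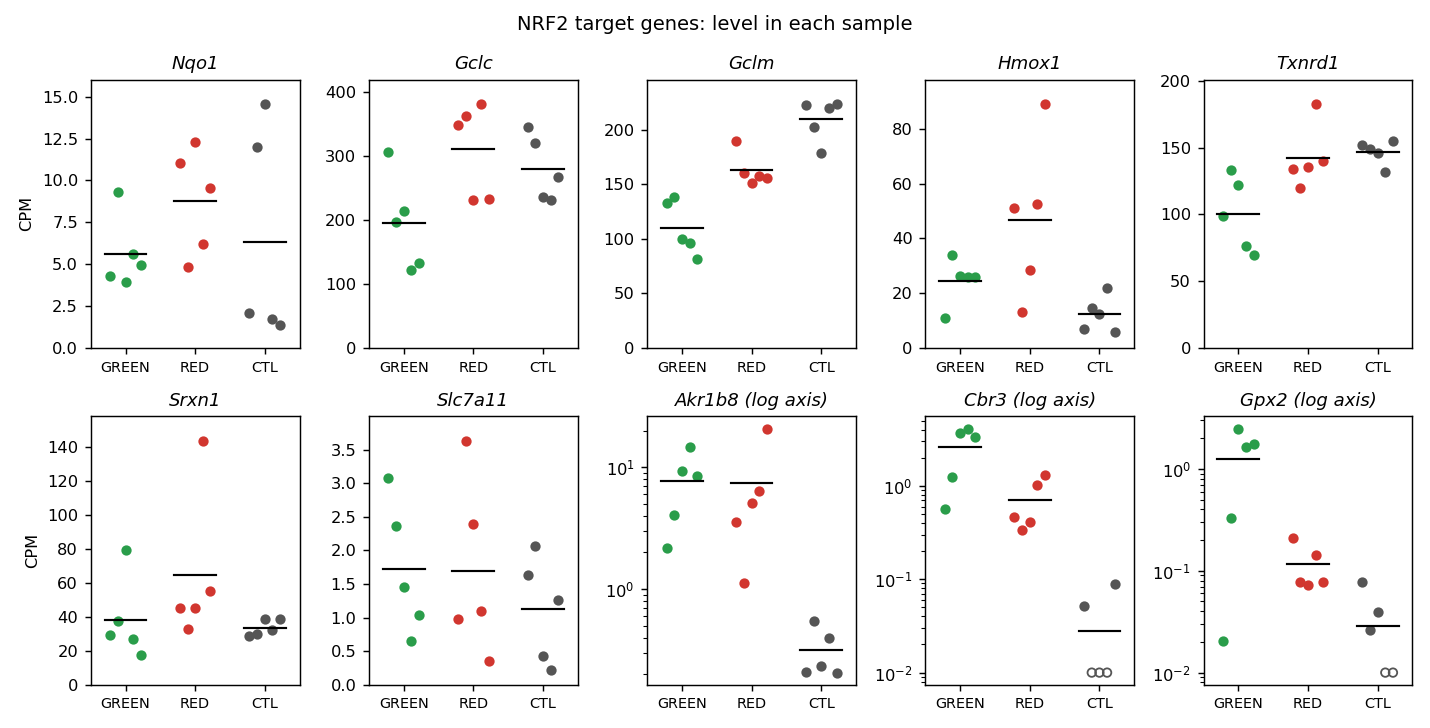
Level of each of the 10 NRF2 target genes in each sample, in CPM (y axis, scaled with TMM factors) for GREEN, RED and CTL (x axis); points are samples, bars are group means, 3 panels have a log axis, and open points are samples at 0, drawn at 0.01 CPM. Akr1b8 and Cbr3 are higher in all GREEN and all RED samples than in any CTL sample, and Gclm is lower in all GREEN samples than in any RED or CTL sample.

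The first comparison asks how native hepatocytes of injured liver differ from those of healthy liver. Of the 9 tested members, 3 were higher in RED than in CTL (Akr1b8, Cbr3 and Hmox1) and 0 were lower, where 14.2% of the 16387 tested genes were higher and 1.99% lower by the same rule. The called members were 2 enzymes of carbonyl reduction and 1 of haem breakdown. The glutathione and thioredoxin members Gclc, Gclm, Txnrd1, Srxn1 and Slc7a11 and the quinone reductase Nqo1 did not pass. At an unadjusted p under 0.05 it was 4 higher and 1 lower, with DESeq2 3 and 1, and with limma-voom 3 and 0. The shares of all tested genes above do not apply to these other rules, for which they are not given here. The median log2 fold change of the 9 members was 0.65, against 0.05 over all tested genes. All calls are from edgeR's quasi-likelihood test with Benjamini-Hochberg adjustment over all tested genes, at an adjusted p under 0.05.

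Akr1b8 (chr6:34354119-34368463, plus strand) encodes an aldo-keto reductase that reduces lipid-derived aldehydes. It stood at 3.56, 1.12, 5.07, 6.35 and 20.8 CPM in RED 1 to 5, against 0.208, 0.548, 0.236, 0.399 and 0.206 CPM in CTL 1 to 5. Every RED sample was above every CTL sample, and RED 5 was the highest while RED 2 was the lowest of its group. The means were 7.37 ± 7.73 CPM in RED and 0.319 ± 0.151 CPM in CTL (SD, n = 5 each), and the fitted log2 fold change was 4.26 (SE 0.68, adjusted p 0.000745), or 19.2-fold. It passed in experiment 1 alone (4.32, adjusted p 0.0142) and in experiment 2 alone (3.69, adjusted p 0.0328). RED 5 also had the highest endothelial, stellate and macrophage sums of the RED group, and the part of those cells in the Akr1b8 level was not tested. Of the 31-base stretches of Akr1b8 transcripts, 9.475% occur in other genes, mostly Akr1b10 and Akr1b7, so a part of its estimated counts could belong to them.

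Cbr3 (chr16:93683215-93690990, plus strand) encodes a carbonyl reductase. Its counts were few, 11, 13, 17, 43 and 34 in RED 1 to 5, against 2, 0, 0, 0 and 3 in CTL 1 to 5. No RED sample overlapped the CTL samples, 3 of which had no count. The means were 0.712 ± 0.437 CPM in RED and 0.0281 ± 0.0406 CPM in CTL. The log2 fold change was 4.25 (SE 0.85, adjusted p 0.00278) and rests on 5 counts in CTL. It was 5.13 without CTL 5, 4.27 in experiment 1 alone (adjusted p 0.0143) and 3.61 in experiment 2 alone, where it did not pass (adjusted p 0.08).

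Hmox1 (chr8:75093621-75100589, plus strand) encodes haem oxygenase 1, which breaks down haem and is also strongly made by macrophages that clear red cells. It stood at 51.2, 13.0, 28.6, 52.6 and 89.0 CPM in RED 1 to 5, against 7.09, 14.5, 12.3, 22.05 and 6.02 CPM in CTL 1 to 5. RED 2 lay inside the CTL range and the other RED samples above it. The log2 fold change was 1.89 (SE 0.42, adjusted p 0.0056). It was 1.97 in experiment 1 alone (adjusted p 0.0367) and 1.77 in experiment 2 alone, which did not pass (adjusted p 0.121). All 10 macrophage markers were also higher in RED, as were all 10 endothelial and all 10 stellate markers. RED 2 had the lowest and RED 5 the highest macrophage sum and stellate sum of the group, as of Hmox1 in CPM. With the experiment effect removed, Hmox1 was higher in RED 4 than in RED 5 (6.14 and 6.05 on the log2 CPM scale). The part of macrophages or other cells in Hmox1 was not tested.

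The remaining members did not pass in RED against CTL. Srxn1 encodes sulfiredoxin, which restores overoxidised peroxiredoxins. It stood at 45.5, 33.0, 45.4, 144 and 55.5 CPM in RED 1 to 5, against 29.1, 29.8, 38.7, 32.2 and 38.8 CPM in CTL 1 to 5. RED 4 stood far above the other RED samples, only RED 2 lay inside the CTL range in CPM, and the log2 fold change of 0.88 (SE 0.40) had an adjusted p of 0.169. With the experiment effect removed, RED 3 also lay inside it (5.31 on the log2 CPM scale, against 5.47 in CTL 3). Gclm had a log2 fold change of -0.36 (adjusted p 0.123), which passed with DESeq2 (-0.40, adjusted p 0.0368) and without RED 1 (-0.52, adjusted p 0.0343). Gclc had 0.17 and Txnrd1 -0.04. Slc7a11, the cystine importer that supplies cysteine for glutathione, had 0.65 (adjusted p 0.336), with 0.975, 3.63, 2.39, 1.098 and 0.350 CPM in RED 1 to 5 and 1.64, 2.06, 0.433, 0.228 and 1.27 CPM in CTL 1 to 5. Its level followed the kit: in the 4 samples with a library of each kind, the experiment 2 library was higher by 0.665 to 2.659 on the log2 scale. The experiment term of the fit takes up a mean difference of this kind.

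**Figure D2:**
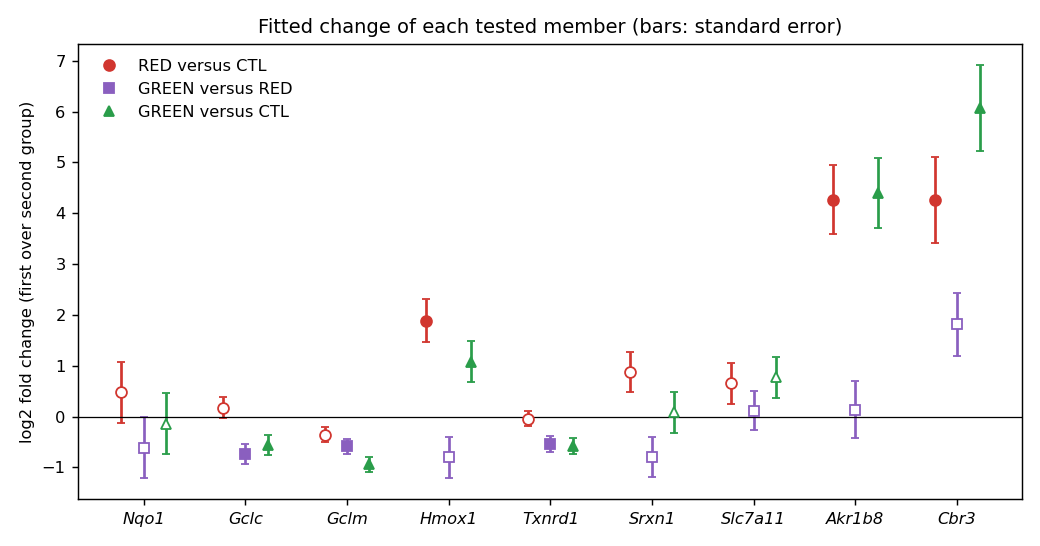
Fitted log2 fold change (y axis) of the 9 tested members (x axis) in RED versus CTL (circles), GREEN versus RED (squares) and GREEN versus CTL (triangles); bars are 1 standard error, and filled symbols passed an adjusted p of 0.05. Akr1b8 and Cbr3 are near 4.26 and 4.25 in RED versus CTL, while Gclc, Gclm and Txnrd1 are below 0 in both comparisons of GREEN.

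Nqo1 (chr8:107388225-107403206, minus strand) encodes NAD(P)H quinone dehydrogenase 1 and is a widely used reporter of NRF2 activity. It passed in none of the 3 comparisons over all samples. It stood at 4.30, 9.30, 3.95, 5.61 and 4.95 CPM in GREEN 1 to 5, at 11.02, 4.83, 12.3, 6.18 and 9.52 CPM in RED 1 to 5, and at 2.08, 12.0, 14.6, 1.71 and 1.39 CPM in CTL 1 to 5. CTL 2 and CTL 3 were far above the other CTL samples, so that the CTL range enclosed all GREEN and all RED values. The log2 fold change was 0.48 (SE 0.60, adjusted p 0.68) in RED against CTL, -0.61 (SE 0.60, adjusted p 0.519) in GREEN against RED and -0.14 (SE 0.60, adjusted p 0.871) in GREEN against CTL. The sum of 4 Y-linked genes (Ddx3y, Uty, Kdm5d and Eif2s3y) separated the CTL samples in the same way: it was 145.9, 198 and 144 CPM in CTL 1, CTL 4 and CTL 5, which had the low Nqo1 values, and 8.07 and 1.34 CPM in CTL 2 and CTL 3. RED 4 and RED 5, with high Y-linked sums (139.96 and 156 CPM), had Nqo1 levels inside the range of the other RED samples. GREEN 3 and GREEN 4, with sums of 117 and 126 CPM, had the lowest and the second highest Nqo1 level of GREEN in CPM. With the experiment effect removed, GREEN 5 was the lowest (2.14, against 2.18 in GREEN 3). When the groups were compared apart at a high and a low Y-linked level, a split at 50 CPM made after the values were seen, Nqo1 in CTL was lower at a high level by a log2 difference of -2.89 (adjusted p 0.00505), where 1.93% of all genes passed. At a high level Nqo1 was higher in RED than in CTL (2.12, adjusted p 0.00459, 19.5% of all genes passing) and in GREEN than in CTL (1.41, adjusted p 0.0185, 49.9% passing). At a low level the log2 fold changes against CTL were -0.47 for RED (adjusted p 0.631, 4.74% passing) and -1.05 for GREEN (adjusted p 0.0894, 25.1% passing). The difference between the levels did not pass, at 2.59 for RED against CTL (adjusted p 0.0916, 0.653% of all genes passing) and 2.46 for GREEN against CTL (adjusted p 0.146, 0.384% passing). In GREEN against RED, Nqo1 passed at neither level, with -0.71 at a high level (adjusted p 0.33, 8.82% passing) and -0.58 at a low level (adjusted p 0.398, 3.52% passing). These fits rest on 2 or 3 samples per group and level. With the Y-linked level as an added term, a choice made after the values were seen, the counts of members called were 4 in GREEN against RED, 6 in GREEN against CTL and 3 in RED against CTL. The shares of all tested genes in that fit are not given here.

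**Figure D3:**
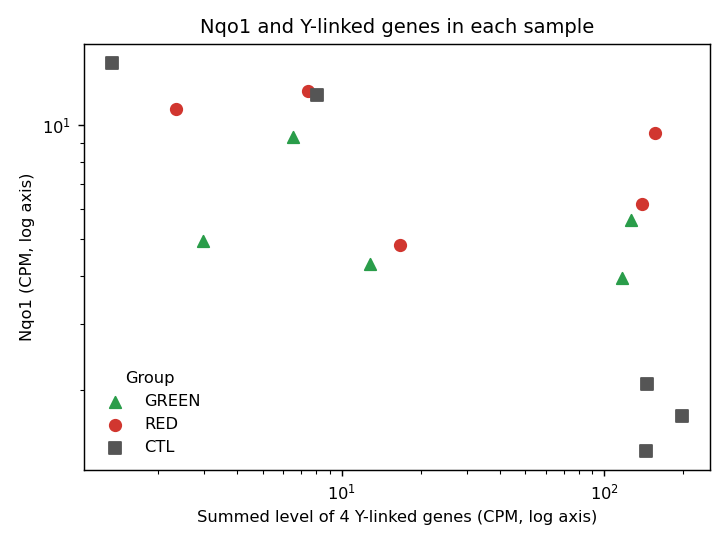
Nqo1 level (y axis, CPM, log axis) against the summed level of 4 Y-linked genes (x axis, CPM, log axis) in each sample, with GREEN as triangles, RED as circles and CTL as squares. The CTL samples near 144 to 198 CPM of Y-linked RNA have Nqo1 at 1.39 to 2.08 CPM, and the other CTL samples have 12.0 and 14.6 CPM.

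The second comparison asks how DR-derived hepatocytes differ from the native hepatocytes of injured liver. Of the 9 tested members, 0 were higher and 3 were lower in GREEN than in RED (Gclc, Gclm and Txnrd1), where 9.68% of all tested genes were higher and 3.22% lower. The members that fell were both subunits of glutamate-cysteine ligase and thioredoxin reductase 1. At an unadjusted p under 0.05 it was 1 higher and 3 lower, with DESeq2 1 and 3, and with limma-voom 0 and 3. Here too the shares of all tested genes above do not apply to these other rules. The median log2 fold change of the 9 members was -0.58, against -0.02 over all tested genes. None of these 3 calls held under scaling by library totals or in experiment 2 alone.

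Gclm (chr3:122245557-122270732, plus strand) stood at 133, 138, 100.2, 96.4 and 81.3 CPM in GREEN 1 to 5, against 189, 160.3, 151, 158 and 156 CPM in RED 1 to 5. Every GREEN sample was below every RED sample, with GREEN 5 the lowest. The means were 109.7 ± 24.5 CPM in GREEN and 163 ± 15.3 CPM in RED (SD, n = 5 each), a log2 fold change of -0.58 (SE 0.15, adjusted p 0.0206). The call was lost without RED 1 (adjusted p 0.0582), GREEN 3 (0.0504) or GREEN 5 (0.0524). The gene overlaps the pseudogene Gm6061 on its own strand and Gm17494 on the other strand. Of its 31-base stretches, 6.825% occur in other genes, among them Gm17494, Ppia and Gm10123.

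Gclc (chr9:77754535-77794485, plus strand) stood at 307, 198, 215, 121 and 134 CPM in GREEN 1 to 5, against 350 (RED 1), 363 (RED 2), 232 (RED 3), 382 (RED 4) and 233 (RED 5) CPM. GREEN 1 lay within the RED range and the other GREEN samples below it. The log2 fold change was -0.74 (SE 0.20, adjusted p 0.033). The call was lost without RED 1 (0.0795), RED 2 (0.051), RED 4 (0.0541), GREEN 3 (0.066), GREEN 4 (0.0839) or GREEN 5 (0.0863).

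Txnrd1 (chr10:82833951-82897712, plus strand) stood at 99.1, 133, 122, 76.1 and 69.9 CPM in GREEN 1 to 5, against 134, 119.9, 136, 182 and 140.0 CPM in RED 1 to 5. GREEN 2 and GREEN 3 lay within the RED range and the others below it. The log2 fold change was -0.54 (SE 0.15, adjusted p 0.0358). It lost its call with no filter on low counts (adjusted p 0.0623) and without RED 1 (adjusted p 0.0698), RED 4 (0.0614), RED 5 (0.0693), GREEN 4 (0.0833), GREEN 5 (0.0921) or CTL 5 (0.0509). Txnrd1 overlaps the protein-coding gene Eid3 on its own strand, and 0.0% of its 31-base stretches occur in other genes.

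The 3 decreases depended on the scaling, on the experiment and on which samples entered the fit. TMM factors, which scale libraries by the bulk of their genes, were highest in GREEN (up to 1.48, GREEN 4) and lowest in CTL (down to 0.624, CTL 4). With library totals in place of TMM, the median over all tested genes moved from -0.02 to 0.42, and the log2 fold changes in GREEN against RED were -0.30 for Gclc, -0.16 for Gclm and -0.11 for Txnrd1, none of which passed. Relative to the median of all genes they were below it under both scalings. In experiment 1 alone (10 libraries, 2 of GREEN, 5 of RED and 3 of CTL) they were -1.30, -0.89 and -0.86, with adjusted p of 0.00445, 0.00238 and 0.00498, and in experiment 2 alone (3 libraries a group) -0.44, -0.34 and -0.31, with adjusted p of 0.749, 0.59 and 0.784. With CTL left out of the fit they were -0.78, -0.62 and -0.59 and did not pass (adjusted p 0.0863, 0.0663 and 0.0788). GREEN 3, GREEN 4 and GREEN 5 had the highest biliary sums and, within GREEN, also the highest stellate and macrophage sums. Without these samples the 3 log2 fold changes were -0.41, -0.25 and -0.33 and 0 members passed. That fit also drops both GREEN libraries of experiment 1 and keeps 2 GREEN samples. In GREEN against RED the hepatocyte marker list had a median log2 fold change of -0.90, with 1 of 10 markers lower, and the biliary list had 9 of 10 markers higher. The part of other cells in these decreases was not tested.

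**Figure D4:**
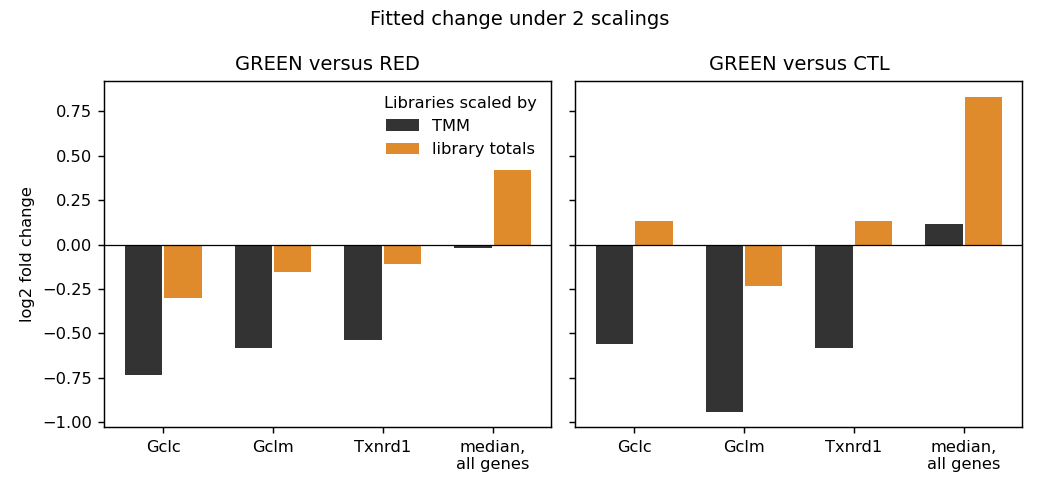
Fitted log2 fold change (y axis) of Gclc, Gclm and Txnrd1 and the median over all tested genes (x axis) in GREEN versus RED (left) and GREEN versus CTL (right), with libraries scaled by TMM (dark bars) or by library totals (orange bars). The bars of Gclc and Txnrd1 in GREEN versus CTL change sign, from -0.56 and -0.58 to 0.13 and 0.13, while the median of all genes moves from 0.11 to 0.83.

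Cbr3 had 27, 61, 201, 208 and 143 counts in GREEN 1 to 5, or 0.558, 1.24, 3.71, 4.10 and 3.29 CPM. Against RED its log2 fold change was 1.81 (SE 0.63), with an adjusted p of 0.0684. It passed with DESeq2 (1.78, adjusted p 0.0228), by library totals (2.29, 0.0269), without GREEN 1 (2.08, 0.0268) and in experiment 1 alone (2.41, 0.0156). Akr1b8 stood at 2.19, 4.06, 9.28, 14.8 and 8.43 CPM in GREEN 1 to 5, all inside the range of RED, and its log2 fold change against RED was 0.14 (SE 0.56, adjusted p 0.896). Hmox1 had -0.80 (SE 0.41, adjusted p 0.195) and Srxn1 -0.80 (SE 0.39, adjusted p 0.18). Srxn1 in GREEN 1 to 5 was at 29.3, 37.6, 79.4, 27.2 and 17.3 CPM, so GREEN 3 was the high sample there as RED 4 was in RED. Slc7a11 had 3.08, 2.37, 1.46, 0.650 and 1.04 CPM in GREEN 1 to 5 and a log2 fold change of 0.12 (SE 0.39, adjusted p 0.869).

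The third comparison sets DR-derived hepatocytes against those of healthy liver, and it shares its samples with the first and second. Of the 9 tested members, 3 were higher in GREEN than in CTL (Akr1b8, Cbr3 and Hmox1) and 3 were lower (Gclc, Gclm and Txnrd1), where 29.5% of all tested genes were higher and 18.6% lower. The median log2 fold change of the members was 0.08, against 0.11 over all tested genes. Cbr3 averaged 2.58 ± 1.58 CPM in GREEN and 0.0281 ± 0.0406 CPM in CTL, a log2 fold change of 6.07 (SE 0.85, adjusted p 0.000108), which was 6.91 without CTL 5. Akr1b8 averaged 7.75 ± 4.92 CPM in GREEN and 0.319 ± 0.151 CPM in CTL, a log2 fold change of 4.40 (SE 0.68, adjusted p 0.00021). Every GREEN sample was above every CTL sample for both genes, and both passed in each experiment alone and without GREEN 3, GREEN 4 and GREEN 5 (4.65 for Cbr3 and 3.54 for Akr1b8).

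Hmox1 stood at 10.9, 33.8, 26.3, 25.9 and 26.0 CPM in GREEN 1 to 5. In CPM, GREEN 1 lay inside the CTL range and the others above it. With the experiment effect removed, GREEN 4 and GREEN 5 (4.27 and 4.28 on the log2 CPM scale) also lay under CTL 2 (4.29). The log2 fold change against CTL was 1.08 (SE 0.41, adjusted p 0.0422). The call was lost without CTL 1, CTL 3, CTL 5, RED 1, RED 3, RED 4, GREEN 2 or GREEN 3, with adjusted p of 0.0526 to 0.142. It was also lost with limma-voom (1.07, adjusted p 0.0647), with RLE factors (adjusted p 0.0551), with the experiment 1 library of the samples that had both (0.0663), without GREEN 3, GREEN 4 and GREEN 5 (0.185) and in each experiment alone (0.92 and 1.36, adjusted p 0.228 and 0.134).

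Gclm averaged 109.7 ± 24.5 CPM in GREEN and 209 ± 19.2 CPM in CTL, where its samples stood at 222, 203, 178, 220.1 and 223 CPM in CTL 1 to 5. All GREEN samples were below all CTL samples, and the log2 fold change was -0.94 (SE 0.15, adjusted p 0.00021). It passed in experiment 1 alone (-1.12, adjusted p 0.000728), in experiment 2 alone (-0.81, adjusted p 0.00838) and without GREEN 3, GREEN 4 and GREEN 5 (-0.70, adjusted p 0.0179), but not by library totals (-0.23, adjusted p 0.0813). Gclc averaged 195 ± 74.3 CPM in GREEN and 280.5 ± 51.03 CPM in CTL, with a log2 fold change of -0.56 (SE 0.20, adjusted p 0.0344) that lost its call without GREEN 2 (adjusted p 0.0638), GREEN 3 (0.0678), GREEN 4 (0.094) or GREEN 5 (0.089). Its CTL samples stood at 346, 321, 236, 232 and 267 CPM, and GREEN 1 lay among them. Txnrd1 averaged 100.1 ± 27.7 CPM in GREEN and 147 ± 8.97 CPM in CTL, a log2 fold change of -0.58 (SE 0.15, adjusted p 0.00672). By library totals Gclc and Txnrd1 changed sign to 0.13 each and did not pass, and in experiment 2 alone they were -0.38 and -0.37 and did not pass. Without GREEN 3, GREEN 4 and GREEN 5 they were -0.33 and -0.45 and did not pass (adjusted p 0.426 and 0.193). The hepatocyte list had 9 of 10 markers lower in GREEN than in CTL, with a median log2 fold change of -1.41.

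Srxn1 and Slc7a11 did not pass in GREEN against CTL, with log2 fold changes of 0.08 (SE 0.40, adjusted p 0.884) and 0.77 (SE 0.40, adjusted p 0.125). Slc7a11 passed by library totals (1.45, adjusted p 0.00976).

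Gpx2 (chr12:76792333-76795554, minus strand), a glutathione peroxidase best known from gut epithelium, had 1, 16, 135, 84 and 77 counts in GREEN 1 to 5, 5, 3, 3, 6 and 2 counts in RED 1 to 5, and 3, 1, 1, 0 and 0 counts in CTL 1 to 5. GREEN 3, GREEN 4 and GREEN 5 carried 1.65 to 2.49 CPM, while GREEN 1 at 0.0207 CPM was below every RED sample. The group means were 1.25 ± 1.04 CPM in GREEN, 0.117 ± 0.0609 CPM in RED and 0.0287 ± 0.0324 CPM in CTL. The 3 high samples are those of the highest biliary sums and, within GREEN, also of the highest stellate and macrophage sums. Whether the Gpx2 RNA came from such cells or from the hepatocytes themselves was not tested. With no filter on low counts its log2 fold change was 3.38 (adjusted p 0.0261) in GREEN against RED, 5.08 (adjusted p 0.00116) in GREEN against CTL and 1.70 (adjusted p 0.465) in RED against CTL. With no filter, the GREEN against RED difference did not pass without RED 1 (adjusted p 0.0646), RED 2 (0.0543), RED 3 (0.06), RED 5 (0.0696), GREEN 3 (0.158), GREEN 4 (0.0668) or GREEN 5 (0.0694), and it was 2.33 without GREEN 3. That against CTL passed without any single sample and was 4.05 without GREEN 3 and 5.88 without CTL 1. Its exons lie opposite Fntb, and 9.641% of its 31-base stretches occur elsewhere, mostly in the pseudogene Gpx2-ps1.

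Of 10 regulators of the pathway, 1 was higher in RED than in CTL (Nfe2l2), 1 was higher in GREEN than in RED (Maff), and 4 were higher and 1 lower in GREEN than in CTL. Of all tested genes, 14.2% were higher and 1.99% lower in RED against CTL, and 9.68% and 3.22% in GREEN against RED. In GREEN against CTL the shares were 29.5% higher and 18.6% lower. These shares are also the background for the edgeR counts of the further lists below. They do not apply to counts by DESeq2, limma-voom or an unadjusted p. Nfe2l2, which encodes NRF2, averaged 75.3 ± 19.4 CPM in RED and 45.98 ± 12.2 CPM in CTL, a log2 fold change of 0.68 (SE 0.17, adjusted p 0.0103). It averaged 74.3 ± 17.1 CPM in GREEN, 0.67 above CTL (adjusted p 0.00489) and -0.01 against RED (adjusted p 0.963). In experiment 2 alone neither increase passed (adjusted p 0.208 for RED and 0.109 for GREEN). Keap1 averaged 37.2 ± 5.80 CPM in GREEN, 46.4 ± 2.13 CPM in RED and 49.2 ± 3.39 CPM in CTL. It was lower in GREEN than in CTL (-0.41, adjusted p 0.00681), a direction that turned to 0.30 by library totals, and its differences of -0.33 in GREEN against RED (adjusted p 0.0611) and -0.09 in RED against CTL did not pass.

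Of the MAF partners, Maff was higher in GREEN than in RED (47.4 ± 19.7 CPM in GREEN and 19.6 ± 9.22 CPM in RED, 1.30, adjusted p 0.0366) and than in CTL (1.56, adjusted p 0.00397). The first of these calls was lost without any of RED 1 to 4, GREEN 3 to 5 or CTL 1, with adjusted p of 0.0582 to 0.113. Mafk was higher in GREEN than in CTL (50.1 ± 20.03 CPM in GREEN and 17.9 ± 2.04 CPM in CTL, 1.46, adjusted p 0.00219). Nfe2l3, a relative of NRF2, was also higher in GREEN than in CTL (2.82, adjusted p 0.00386). None of Nfe2l2, Maff, Mafk and Nfe2l3 passed against CTL in experiment 2 alone or without GREEN 3, GREEN 4 and GREEN 5. The repressor Bach1, the ligase scaffold Cul3, the autophagy receptor Sqstm1, Mafg and Nfe2l1 passed in no comparison, with log2 fold changes of -0.36 to 0.04 in GREEN against RED, -0.74 to -0.07 in GREEN against CTL and -0.41 to -0.11 in RED against CTL.

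The wider set of glutathione and thioredoxin genes had 0 of 21 members called in RED against CTL by edgeR and by limma-voom, and 2 higher both with DESeq2 and at an unadjusted p under 0.05. In GREEN against RED, 0 were higher and 2 lower: Mgst1, a microsomal glutathione transferase (-0.88, adjusted p 0.0285), and Gss, glutathione synthetase (-0.55, adjusted p 0.0259). In GREEN against CTL, 0 were higher and 9 lower, led in size by Gstp2 (-2.55, adjusted p 0.0397), Mgst1 (-1.02, adjusted p 0.00306), the peroxiredoxin Prdx6 (-0.99, adjusted p 0.00251) and Gstm4 (-0.98, adjusted p 0.012). By library totals these 4 kept their sign but did not pass. Gstp2 divided the CTL samples by Y-linked sum. It was at 4.67, 10.7 and 7.99 CPM in CTL 1, CTL 4 and CTL 5, with a high sum. In CTL 2 and CTL 3, with a low sum, it was at 0.574 and 0.433 CPM. GREEN 1, GREEN 2 and GREEN 5, with a low sum, had 0.310, 0.510 and 0.507 CPM, and GREEN 3 and GREEN 4, with a high one, 1.29 and 1.60 CPM. The list's medians were -0.63 in GREEN against RED and -0.59 in GREEN against CTL.

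Among 7 genes of NADPH supply, G6pdx, the entry enzyme of the pentose phosphate pathway, was the member that was higher, in GREEN against CTL (15.6 ± 8.82 CPM in GREEN and 4.10 ± 0.525 CPM in CTL, 1.82, adjusted p 0.00236). It was 0.68 without GREEN 3, GREEN 4 and GREEN 5 and did not pass (adjusted p 0.379). Idh1, the cytosolic NADP-dependent isocitrate dehydrogenase, was lower in GREEN against RED (-0.81, adjusted p 0.0383) and against CTL (-1.03, adjusted p 0.00289). Taldo1 (-0.45) and Pgls (-0.42) were lower in GREEN against CTL and turned to 0.28 and 0.29 by library totals. In RED against CTL 0 of the 7 passed with edgeR, DESeq2 or limma-voom, and 0 had an unadjusted p under 0.05.

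Of 18 other NRF2-linked genes of detoxification and export, 2 were higher in RED than in CTL and 0 lower. These were the glutathione conjugate exporter Abcc1 (2.03, adjusted p 0.0155) and Ptgr1, which reduces reactive alkenals (1.34, adjusted p 0.0155). The Abcc1 call was lost without CTL 4 (adjusted p 0.0572) or RED 4 (0.0511). In GREEN against CTL, 3 were higher and 8 lower, with Abcc1 (3.26, adjusted p 0.000445), the exporter Abcc4 (3.25, adjusted p 0.00532) and Ptgr1 (2.16, adjusted p 0.00033) up and the cytochrome Cyp2a5 (-2.63, adjusted p 0.00849) the largest decrease. Abcc4 was 4.23 without CTL 2. Cyp2a5 and Abcc4 also divided the CTL samples by Y-linked sum. In CTL 2 and CTL 3, with a low sum, Cyp2a5 was at 364 and 364 CPM and Abcc4 at 6.19 and 2.99 CPM. In CTL 1, CTL 4 and CTL 5, with a high sum, Cyp2a5 was at 117, 56.8 and 34.4 CPM and Abcc4 at 0.441, 0.342 and 0.501 CPM. The GREEN samples had 13.8 to 65.5 CPM of Cyp2a5 and 6.26 to 32.3 CPM of Abcc4. In GREEN against RED, 0 were higher and 3 lower: the glucuronosyltransferases Ugt1a6a (-0.89, adjusted p 0.0243) and Ugt1a6b (-0.89, adjusted p 0.0311), which share exons, and the aldehyde oxidase Aox1 (-0.78, adjusted p 0.0435).

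Of 13 tested paralogs of the members, 4 were higher in RED than in CTL and 0 lower: Gpx3 (3.96, adjusted p 0.000571), the amino acid transporter Slc7a8 (3.24, adjusted p 0.000715), Akr1b10 (2.14, adjusted p 0.00243) and Akr1b3 (1.06, adjusted p 0.00452). Akr1b10, the nearest neighbour of Akr1b8 in sequence, averaged 4.22 ± 2.16 CPM in GREEN, 2.24 ± 1.09 CPM in RED and 0.497 ± 0.276 CPM in CTL. In GREEN against CTL, 4 were higher and 4 lower, with Gpx3 at 6.15 (adjusted p 1.62e-05), Akr1b10 at 2.99 (adjusted p 0.000117), Slc7a8 at 2.66 (adjusted p 0.00085) and the main hepatocyte glutathione peroxidase Gpx1 at -0.94 (adjusted p 0.0232). Gpx3 was also higher in GREEN than in RED (2.19, adjusted p 0.013), and no other paralog passed there.

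Of 9 ATF4 targets and stress factors, 0 passed in RED against CTL with edgeR and limma-voom and 1 with DESeq2, while 3 had an unadjusted p under 0.05. In GREEN against RED, 2 were higher and 0 lower, the serine synthesis enzyme Phgdh (3.48, adjusted p 0.0294) and the stress factor Atf3 (1.35, adjusted p 0.0201). In GREEN against CTL, Phgdh (4.05, adjusted p 0.00419), Psat1 (2.42, adjusted p 0.000886) and Atf3 (2.02, adjusted p 0.000389) were higher and Chac1, which degrades glutathione, was lower (-1.34, adjusted p 0.0246). With 1 sample left out, Phgdh in GREEN was 2.98 to 4.24 (without RED 2) against RED and 3.39 (without CTL 3) to 4.60 against CTL. Under the other alternatives it was 0.98 to 4.94 against RED and 1.81 to 7.50 against CTL. Its counts were 34, 43, 0, 0 and 13 in CTL 1 to 5, with CTL 3 and CTL 4 from experiment 1. Of 6 targets of the aryl hydrocarbon receptor, Cyp1b1 was higher in RED than in CTL (5.89, adjusted p 0.00102; 3 counts in all of CTL) and in GREEN than in CTL (7.09, adjusted p 0.000106), and Cyp1a2 was lower in GREEN than in CTL (-1.20, adjusted p 0.0174). Cyp1b1 against CTL was 5.00 without RED 5 and 7.01 without CTL 5 in RED, and 8.20 without CTL 5 and 6.49 without CTL 3 in GREEN.

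The 9 calls of these further lists in GREEN against RED depended on single samples. All 9 were lost without GREEN 5 (adjusted p 0.0602 to 0.124), 7 each without RED 1, GREEN 3 or GREEN 4 (up to 0.114), 6 without RED 4, 5 without RED 5, 3 without RED 3 and 2 without CTL 5. Of the 22 named calls in GREEN against CTL, Gstp2 was lost without CTL 4, CTL 5, GREEN 1, GREEN 2, GREEN 4 or GREEN 5, Chac1 without CTL 4, GREEN 4 or GREEN 5, Gpx1 without GREEN 3 or GREEN 4, and Cyp1a2 without GREEN 4 or GREEN 5, with adjusted p of 0.0503 to 0.109. Without GREEN 3, GREEN 4 and GREEN 5, Abcc4 (adjusted p 0.22), Phgdh (0.185), Psat1 (0.0941), Ptgr1 (0.0562) and Slc7a8 (0.0678) did not pass against CTL.

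Over the 15 samples, with the experiment effect removed and each gene scaled to mean 0 and SD 1, the tested genes nearest to Akr1b8 were Kcnab2 (mean absolute difference 0.09), Ppp1r18 (0.093) and Pgm5 (0.108). Those nearest to Nqo1 were H2-Q1 (0.191), Greb1l (0.294) and Kctd2 (0.306). The nearest genes of Nqo1 were thus less close to it than those of Akr1b8 were to Akr1b8.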

How the data were processed

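Per the labels' protocols, libraries were made from 150 ng of total RNA with TruSeq Stranded mRNA (experiment 1) or KAPA RNA HyperPrep with RiboErase (experiment 2). The authors deposited 2 tables of estimated counts per gene, not normalized, and 40.56% of their values were not whole. kallisto 0.43.1 and GRCm38 are given in the submitters' processing notes; the annotation and the way transcripts were summed per gene: not given in the sources used here. Symbols and positions came from a GENCODE annotation of GRCm38 (99.0% of identifiers matched).

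Estimated counts were rounded. CTL 5, RED 2, RED 3 and RED 4 had a library in each experiment and entered with that of experiment 2. Genes were filtered with filterByExpr, scaled by TMM, and tested in 1 model of 15 libraries with group and experiment as terms, by the quasi-likelihood test of edgeR 4.0.16 (R 4.3.3) with Benjamini-Hochberg adjustment. CPM values were computed with the TMM factors, and each SE belongs to a log2 fold change of the model. The script was tested on simulated data. Alternatives were DESeq2 1.42.0, limma-voom (limma 3.58.1), other scalings, filters and libraries, each sample left out, replicate blocks and, chosen after the data were seen, a Y-linked term, fits at each Y-linked level, Gpx2 without filter and without each sample, and a block in experiment 2. The 10 members and all lists were chosen with earlier results of these data known. Named genes are the members, the regulators, up to 4 called genes of the largest change per list and comparison, and the 3 nearest genes of Nqo1 and Akr1b8.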

Additional observations from a re-analysis of the deposited data

Results flagged for a closer look

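Values of the members were checked within each group of 5 samples on the log2 CPM scale with the experiment effect removed. Of 30 groups looked at, 2 had a sample whose gap to its neighbour exceeded 0.71 of the group's range, and chance gives about 1 in 20 groups. Nqo1 in GREEN had GREEN 2 as the highest sample, at 3.41 on this scale against 2.14 to 2.32 in the other GREEN samples, a gap of 0.859 of the range. Gclc in CTL had CTL 5 as the lowest sample, at 7.82 against 8.09 to 8.19 in the other CTL samples, a gap of 0.713 of the range.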

How the results depend on the processing

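The count of members called was 3 in GREEN against RED, 6 in GREEN against CTL and 3 in RED against CTL. In GREEN against RED it was 1 by library totals, 5 with the experiment 1 library of the 4 samples that had 2, 6 in experiment 1 alone, 0 in experiment 2 alone, 0 with CTL left out, 0 without GREEN 3 to 5, and 0 to 5 with 1 sample left out (0 without RED 1 or GREEN 5, 1 without GREEN 3 or GREEN 4, 5 without GREEN 1). The 5, the 6 and the 5 include Gpx2, which passed the filter there and not in the 15-library fit. Over the 9 members of that fit they were 4, 5 and 4, and 1 was called without RED 4. In GREEN against CTL it was 3 in experiment 2 alone, 3 without GREEN 3 to 5 and 4 to 7 with 1 sample left out (4 to 6 over the 9), and by library totals 4 were higher and 0 lower. In RED against CTL it was 1 in experiment 2 alone and 3 to 4 with 1 sample left out. The cause was not tested. Experiment 1 or 2 alone has fewer libraries. Apart from the fits with 1 sample left out, calls over all tested genes are not given here for these alternatives. The calls over all tested genes moved as well with 1 sample left out. In GREEN against RED they ranged from 775 to 2177 higher and 41 to 1338 lower. In GREEN against CTL they were 4092 to 5150 higher and 2316 to 4029 lower. In RED against CTL they were 1850 to 2445 higher and 186 to 822 lower.

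The labels do not say whether a code number shared by GREEN and RED samples marks an animal. Samples of equal code number deviated together with r of 0.577, 0.398, 0.78, 0.435 and -0.223. Of the GREEN samples, only GREEN 3 correlated best with the RED sample of its own number, RED 4. GREEN 1, GREEN 2, GREEN 4 and GREEN 5 correlated best with RED 1, RED 1, RED 5 and RED 2 (r of 0.578, 0.43, 0.449 and 0.276). With the code-number replicate block and CTL left out, 1 member was called in GREEN against RED, Cbr3 (1.38, adjusted p 0.0403), and Gclc, Gclm and Txnrd1 did not pass (adjusted p 0.154, 0.16 and 0.182), as they did not with CTL left out and no block. In experiment 2 with that block 0 were called. With title numbers as the replicate block, 2, 5 and 3 members were called in GREEN against RED, GREEN against CTL and RED against CTL, with Txnrd1 lost in the first (adjusted p 0.0719) and Hmox1 in the second (0.0631).

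Log2 fold changes of these genes changed sign. By library totals, in RED against CTL Keap1 was 0.20 and Txnrd1 0.24, in GREEN against RED Keap1 was 0.10 and Nfe2l2 0.44, and in GREEN against CTL Gclc was 0.13, Txnrd1 0.13, Keap1 0.30, Nqo1 0.48, Pgls 0.29 and Taldo1 0.28. With the experiment 1 libraries, in RED against CTL Keap1 was 0.10, Nfe2l3 -0.41 and Txnrd1 0.12. In experiment 1 alone, Keap1 was 0.046 and Txnrd1 0.035 in RED against CTL, Nfe2l2 0.11 in GREEN against RED and Srxn1 -0.72 in GREEN against CTL. In experiment 2 alone, Maff was -0.20 in RED against CTL, Nfe2l2 0.011 and Slc7a11 -0.045 in GREEN against RED (Nfe2l2 0.0088 with the block too), and Nqo1 0.18 in GREEN against CTL. With the code-number block, Akr1b8 was -0.086 in GREEN against RED. Without GREEN 3 to 5, Akr1b8 was -0.71 in GREEN against RED, and Nqo1 0.31 and Srxn1 -0.17 in GREEN against CTL. Nqo1 in GREEN against CTL was 0.36 with limma-voom, 0.33 with the title-number block and 0.068 with the Y-linked term. With 1 sample left out, RED against CTL ranged from -0.047 to 0.30 for Gclc, -0.033 to 0.40 for Maff and -0.17 to 0.041 for Txnrd1, GREEN against RED from -0.21 to 0.77 for Akr1b8, -0.088 to 0.051 for Nfe2l2 and -0.11 to 0.35 for Slc7a11, and GREEN against CTL from -0.47 to 0.42 for Nqo1 and -0.24 to 0.28 for Srxn1. Of all values of single genes under the alternatives, 1796 kept direction and call, 249 lost the call, 36 gained it and 47 changed sign. Cbr3 and Gpx2 are limited by few counts.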

Other observations

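The sample codes and the Y-linked genes were at odds for RED 5 and GREEN 5. They carry the same code number, yet their summed Y-linked level was 2.97 CPM in GREEN 5 and 156 CPM in RED 5. Samples of the other shared code numbers had like levels. These were 16.7 and 12.8 CPM in RED 2 and GREEN 1, and 7.44 and 6.55 CPM in RED 3 and GREEN 2. RED 4, GREEN 3 and GREEN 4 had 140, 117 and 126 CPM. GREEN 3 and GREEN 4 carry the same code number in different experiments, and the median absolute log2 difference between them was 0.289 over all tested genes. Between the libraries of the 4 samples sequenced in both experiments it was 0.192 to 0.248, and 25 other pairs within a group had 0.263 to 0.62. The GREEN pairs among these had 0.327 to 0.62. The labels do not say whether GREEN 3 and GREEN 4 share an animal, and they were counted as separate samples, as their labels have them.

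Among the samples with a high Y-linked sum, Nqo1 was 3.95 and 5.61 CPM in GREEN 3 and GREEN 4, 6.18 and 9.52 CPM in RED 4 and RED 5, and 2.08, 1.71 and 1.39 CPM in CTL 1, CTL 4 and CTL 5. Among the samples with a low one it was 4.30, 9.30 and 4.95 CPM in GREEN 1, GREEN 2 and GREEN 5, 11.02, 4.83 and 12.3 CPM in RED 1, RED 2 and RED 3, and 12.0 and 14.6 CPM in CTL 2 and CTL 3. All injured samples with a high Y-linked sum were thus above the CTL samples with one. GREEN 1, GREEN 2, GREEN 5, RED 1 and RED 2, with a low sum, were below both CTL samples with a low sum. RED 3 lay between CTL 2 and CTL 3 in CPM and above both with the experiment effect removed. This order was seen after the data were examined, and the fits at each Y-linked level are given with the Nqo1 results.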
